A study of Homo sapiens with 4 samples.

Results

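Among the 30843 genes in the deposited table of A549 cells in 2D culture, 70 were protein-coding histone genes by their symbols. The rule used names and not values, but it was set with earlier results of these data known. The 70 genes divided into 58 replication-dependent genes, 11 replacement genes, and H2AX, which was kept apart because it is known to make mRNA of both kinds. Of the 25 histone genes tested, only H2BC12, a gene for a canonical H2B protein, was called at a limma adjusted p under 0.05. In the RM+ group it was at 1.46 times its RM- level (log2 difference 0.54, SE 0.12, n = 2 per group). Over all 17632 genes tested, 2.26% were called. The log2 difference of H2BC12 ran from 0.42 to 0.67 with 1 sample left out. With no filter on low genes its call was lost (limma adjusted p = 0.436), and no gene of the table was called. H2BC12 also lost its call without RM- replicate 2 and without RM+ replicate 2. Of the stretches of 31 bases in its annotated transcript, 86.3% also occur in another gene. The group means of H2AC6 and H1-2 were 1.34 and 1.28 times as high in the RM+ group, without an adjusted p under 0.05. The sum of the replacement genes was at 0.994 times its RM- level.

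A549 is a human lung adenocarcinoma line of epithelial origin, labelled wild type for these cultures. Respiratory motion (RM) was applied to cells on plastic plates as air pressure alternating between -5 and 0 mmHg in a sealed chamber (RM+ group), whereas the pressure unit was left unconnected in the RM- group, and both were harvested with trypsin on day 4 with no other agent. There were 2 samples per group, and the labelled batch of each sample equals its replicate number. Since no label describes the sequenced replicates as separate cultures, every p-value here reflects the spread among 4 samples alone, and that spread may be technical. In RNA from a whole well, fewer cells of a kind and less RNA per cell cannot be told apart. The libraries held 18754356 to 20412283 reads assigned to genes, and each value below is a normalised read count, the reads of a gene divided by a size factor of that sample. Epithelial markers (KRT8, KRT18, KRT19, EPCAM and CDH1) summed to 89707 and 98700 in the RM- samples and to 96284 and 97257 in the RM+ samples. The fibroblast, endothelial and immune marker sums stayed between 3.03 and 157 in every sample. KRT8 and KRT18 made most of the epithelial sum. EPCAM had only 45.4 to 67.9, below the 130 to 154 of the fibroblast marker COL1A1, and the markers COL1A2 and CD3E had no values.

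Histone proteins package DNA into nucleosomes, and the replication-dependent genes supply them during S phase. Their mRNAs are the best known exception to polyadenylation in animal cells, because the transcript is cleaved just after a short stem-loop that the protein SLBP binds, and no poly(A) tail is added. Replacement histone genes lie outside the clusters, contain introns in many cases, and make ordinary polyadenylated mRNA through the whole cell cycle. The libraries were made after poly(A) enrichment with a kit that marks the strand, so a replication-dependent gene is counted only as far as its RNA carried a tail or passed the enrichment without one.

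The histone stem-loop was searched for in the GENCODE v29 transcripts of GRCh38, as the letters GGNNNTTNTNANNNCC with all 6 pairs of the stem matched around a loop of 4 bases. Of the 58 replication-dependent genes, 54 could be matched to a v29 transcript by gene identifier. The other 4 were not matched, which does not show that v29 lacks them. Of the 54, 23 held the stem-loop, against 0 of 11 replacement genes. In 18 of the 23, the annotated transcript ran on for at least 100 bases past the stem-loop, and 11 of these 18 had the poly(A) signal AATAAA in the last 40 bases. The stem-loops of genes described below are shown with 5 bases on either side, because they mark the end that a tailless mRNA would have, and the 16 bases of stem and loop are in capitals.
H2AC6: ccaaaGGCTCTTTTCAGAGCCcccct
H2BC5: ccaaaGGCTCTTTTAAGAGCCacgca
H4C8: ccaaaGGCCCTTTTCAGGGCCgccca
H2BC21: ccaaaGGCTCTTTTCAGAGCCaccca
H3C6: ccaaaGGCTCTTCTCAGAGCCaacca
H3C10: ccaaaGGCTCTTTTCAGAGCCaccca
H2AX: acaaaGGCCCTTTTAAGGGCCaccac
The longest annotated transcripts with these stem-loops continued for 1128 bases beyond it in H2AC6, 39 in H2BC5, 1655 in H4C8, 1729 in H2BC21, 1862 in H3C6, 769 in H3C10 and 1044 in H2AX. Except in H2AX, each of them had AATAAA near its end. The v29 transcripts of H2BC12, H1-2 and H2AC20 hold no stem-loop of these letters, and at 381, 642 and 390 bases they hold only the coding part, so the search could not reach their ends. Other v29 transcripts without a match were similarly short, with 381 bases in H2BC3, 312 in H4C1 and 411 in H3C1. A gene without a match is thus not shown to lack the stem-loop.

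Most replication-dependent genes were barely counted. Of the 58, 4 had a mean of at least 100 normalised read counts over the 4 samples (H2BC12, H2AC6, H1-2 and H2BC5), 11 lay between 10 and 100, and 43 lay under 10, of which 14 lay under 1. The filter of at least 10 normalised read counts in at least 2 samples passed 15 of them, and the highest mean among the 43 others was 7.47. All 5 types were represented among the 58, with 5 linker H1 genes, 13 H2A genes, 17 H2B genes, 10 H3 genes and 13 H4 genes, and those that passed comprised 1, 3, 7, 2 and 2 of them in that order. By contrast, 9 of 11 replacement genes passed the filter, with means from 588 to 7776, while H1-7 and H1-8, linker histones of germ cells, had means under 0.26.

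**Figure D1:**
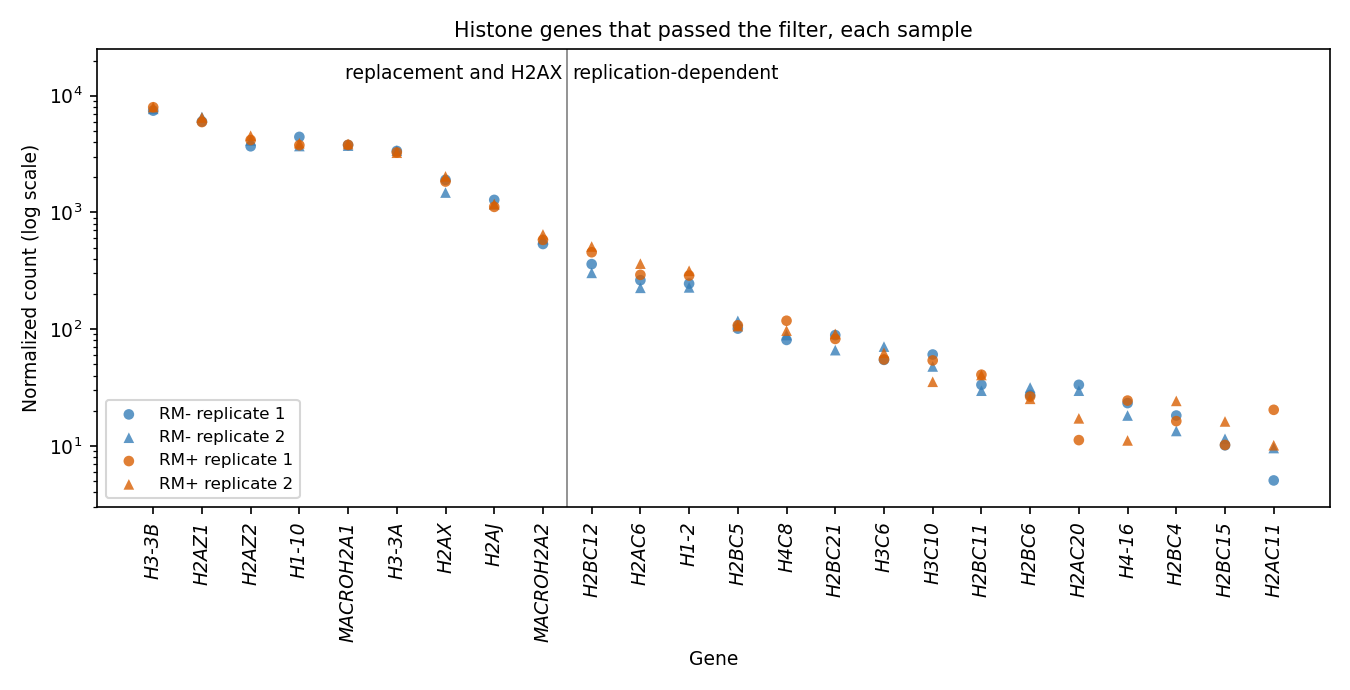
Normalised read count (log scale) of 24 histone genes that passed the filter, 1 point per sample, with circles for replicate 1, triangles for replicate 2, blue for RM- and orange for RM+. The 8 replacement genes drawn and H2AX, left of the line, lie at 535.7 or above in every sample, and the 15 replication-dependent genes, right of it, reach at most 509.9.

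Passing the filter went with the genomic span that the deposited table gives a gene. Of the 20 replication-dependent genes spanning at least 600 bases, 12 passed, against 3 of the 38 shorter ones (H2BC12, H2AC20 and H2AC11, with spans of 495, 494 and 493 bases). The span runs from the first to the last base of a gene and can include introns, so it is not the length over which reads were counted. H2AC6, for example, spans 14972 bases against 1668 in its longest v29 transcript. Why passing went with span was not tested. The counts are not corrected for length and do not compare abundance between genes. Among the 23 genes with a stem-loop in v29, 9 of the 18 with an extension past it passed and 1 of the 5 without. Of the 31 in whose v29 transcripts it was not found, 5 passed. Short v29 transcripts such as that of H2BC12 hold only the coding part, so the 31 are not shown to lack a stem-loop. The counted gene can also be shorter than its v29 transcript. This held for H2BC9 (462 against 2060 bases) and H3C8 (496 against 2411), which did not pass, and for H2AC11 (493 against 2250), which did.

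**Figure D2:**
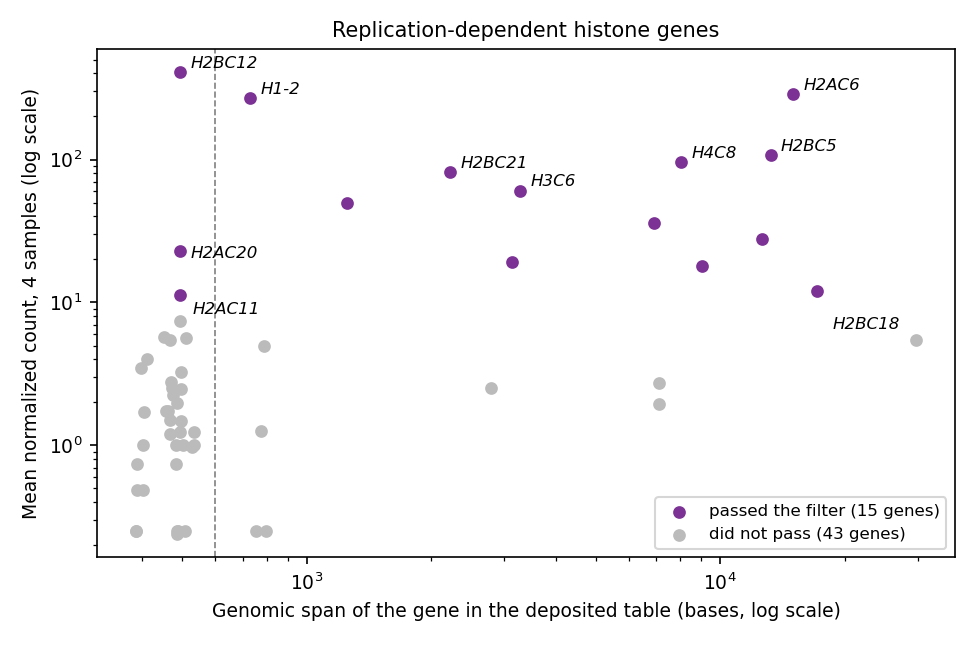
Mean normalised read count over the 4 samples (log scale) against the genomic span in bases (log scale) of each of the 58 replication-dependent genes, with the 15 that passed the filter in purple and the dashed line at 600 bases. Most short genes lie below 10, and H2BC12, at 495 bases, has the highest mean.

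The comparison of the RM+ and RM- groups asked whether RNA counts in these poly(A)-enriched libraries differed with pressure cycling. For it, limma-trend was fitted to all 17632 genes that passed the filter. Differences are the RM+ minus the RM- mean of log2(normalised read count + 1). Of the 25 histone genes tested, 1 was called higher and 0 lower at an adjusted p under 0.05, while 1.46% of all genes tested were called higher and 0.794% lower, 2.26% in all. At an unadjusted p under 0.05, 3 were higher and 2 lower in limma, where 7.68% and 6.8% of all genes were. The study's rule for differentially expressed genes asks for a log2 fold change beyond 1 in either direction together with an unadjusted p under 0.05. By it 0 histone genes were higher and 1, H2AC20, was lower, against 0.749% and 0.403% of all genes, or 1.15% in either direction. Both RM+ samples lay above both RM- samples for 9 of the 25, below both for 4, and the groups overlapped for 12, whereas 22.2% of all genes lay above and 22.2% below, 44.4% without overlap. The median log2 fold change was 0.23 over the 15 replication-dependent genes, with a range from -1.12 to 0.95, and -0.01 over the 9 replacement genes, beside -0.00 over all genes tested. edgeR and DESeq2 on the whole reads each called 1 histone gene as well, H2BC12, and DESeq2 gave no adjusted p to 9 of the 15 replication-dependent genes. The shares of all genes that edgeR and DESeq2 called are not given here. When the replicate number, which is also the batch, was added as a block, limma called 3 histone genes higher (H2BC12, H2AC6 and H2AX), in a fit that called 9.74% of all genes.

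**Figure D3:**
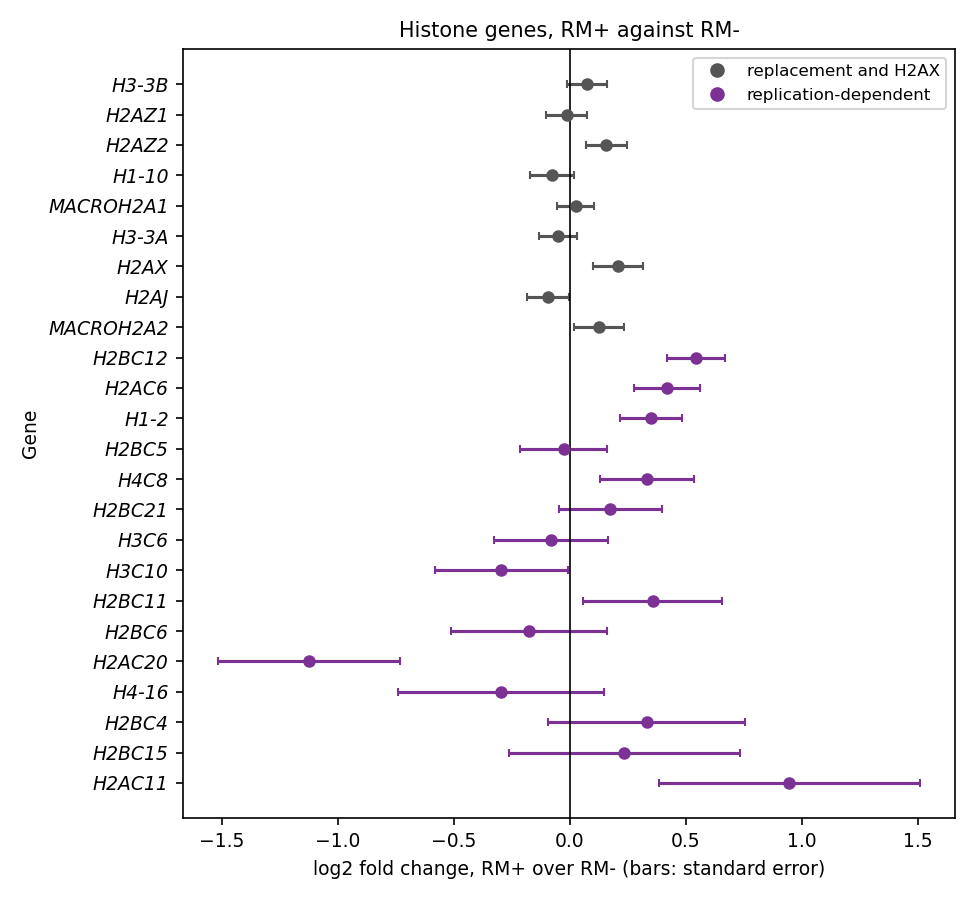
Log2 fold change of the RM+ over the RM- group for 24 histone genes tested, ordered by mean level within each class, with bars for the standard error from limma (2 samples per group). The 8 replacement genes drawn and H2AX stay between -0.10 and 0.21, and the replication-dependent genes spread from -1.12 to 0.95, with wider bars at lower counts.

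H2BC12 (ENSG00000197903), on chromosome 6 at 27146361 to 27146855 on the minus strand, lies on the chromosome that holds 47 of the 58 replication-dependent genes, most of them in the large histone cluster. Its normalised read counts were 360.2 and 303.0 in the RM- samples and 455.2 and 509.9 in the RM+ samples. The groups did not overlap, and the lower RM+ sample was above the higher RM- sample by more than either pair of replicates differed. On the log2 scale the difference was 0.54 (SE 0.12, limma adjusted p = 0.0289), with 0.34 within batch 1 and 0.75 within batch 2. The adjusted p was 0.0365 with edgeR and 0.0491 with DESeq2, and the call was lost without RM- replicate 2 (log2 difference 0.42, limma adjusted p = 0.140) and without RM+ replicate 2 (0.46, limma adjusted p = 0.117). It was also lost with no filter on low genes, where no gene of the table had a limma adjusted p below 0.357. Identity is a limit for this gene, since 86.3% of the stretches of 31 bases in its v29 transcript also occur in another gene and 74.4% of them in H2BC12L on chromosome 21. How reads that fit several places were counted is unknown from the sources at hand, but H2BC12L itself had 4, 0, 2 and 0 reads in the RM- and RM+ samples.

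H2AC6 (ENSG00000180573), a gene for a canonical H2A protein, occupies chromosome 6 from 26124145 to 26139116 on the plus strand in the table. Its counts were 262.3 and 225.6 in the RM- samples and 291.6 and 363.5 in the RM+ samples. Both RM+ values were higher, although RM+ replicate 1 exceeded RM- replicate 1 by less than the RM+ replicates differed from each other. The log2 difference was 0.42 (SE 0.14, limma adjusted p = 0.168), with 0.15 within batch 1 and 0.69 within batch 2. With the replicate block the limma adjusted p was 0.0135, and without RM+ replicate 1 the log2 difference was 0.58 with an adjusted p of 0.0379. Of the stretches of 31 bases in its longest v29 transcript, 1.83% were shared with another gene. That transcript runs 1128 bases past the stem-loop, whereas that of H2BC12 holds only the coding part, so their shares cover unlike parts.

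H1-2 (ENSG00000187837), one of the linker histones that bind DNA between nucleosomes, lies on chromosome 6 at 26055740 to 26056470 on the minus strand. It was measured at 245.1 and 227.5 in the RM- samples and at 287.6 and 316.0 in the RM+ samples, again without overlap. The log2 difference was 0.35 (SE 0.13, limma adjusted p = 0.218), and 0.23 and 0.47 within batches 1 and 2. For all 3 of these genes the within-batch difference was larger in batch 2, a comparison of 1 pair of samples with another that was not tested. The block gave H1-2 a limma adjusted p of 0.0588.

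The fourth gene with a mean above 100, H2BC5 (ENSG00000158373), codes for another canonical H2B protein and did not follow them. Its counts of 100.9 and 117.6 (RM-) and 107.7 and 106.0 (RM+) overlapped, with a log2 difference of -0.03 (SE 0.19, limma adjusted p = 0.972). It overlaps LARP1P1 on its own strand and H2BC6-AS1 on the other, and the sources at hand do not say whether the counting used the strand.

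**Figure D4:**
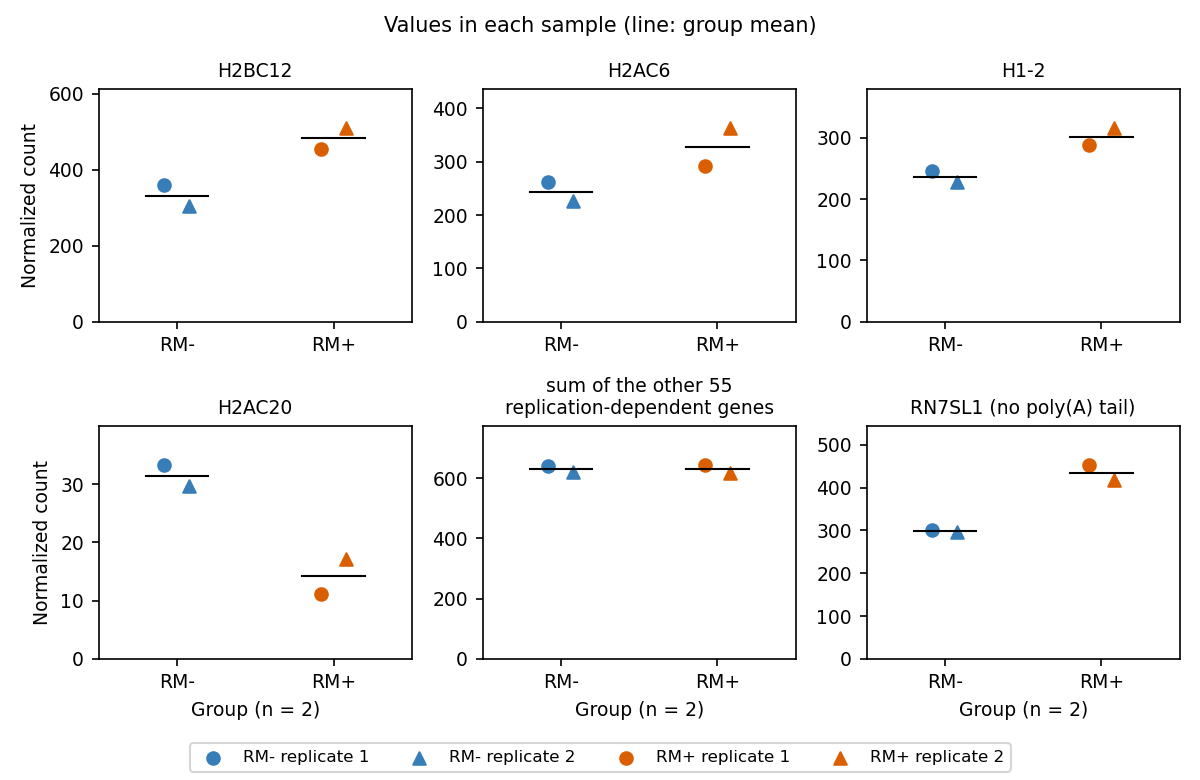
Normalised read count in each sample for H2BC12, H2AC6, H1-2, H2AC20, the sum of the other 55 replication-dependent genes, and RN7SL1, with every vertical axis starting at 0 and a line at each group mean (2 samples per group). The RM+ points lie above the RM- points for H2BC12, H2AC6, H1-2 and RN7SL1 and below them for H2AC20, and the sum of the other 55 genes lies between 616.9 and 644.2 in all 4 samples.

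The promoters of H2BC12, H2AC6 and H1-2 are shown as the 150 bases before the RefSeq start (GRCh38.p14), because these genes carry the differences above. Capitals mark, on either strand, the octamer ATTTGCAT (bound by POU2F1, known as OCT1, in H2B promoters), the TATA box TATAAA, the CCAAT box CCAAT and the H1 box AAACACA, and none of these letter strings contains another. In sequence order they are at chr6:27146856-27147005 on the minus strand, chr6:26124022-26124171 on the plus strand and chr6:26056471-26056620 on the minus strand.
H2BC12: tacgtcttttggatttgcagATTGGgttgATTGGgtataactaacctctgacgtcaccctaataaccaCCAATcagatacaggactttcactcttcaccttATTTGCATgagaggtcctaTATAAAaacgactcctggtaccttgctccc
H2AC6: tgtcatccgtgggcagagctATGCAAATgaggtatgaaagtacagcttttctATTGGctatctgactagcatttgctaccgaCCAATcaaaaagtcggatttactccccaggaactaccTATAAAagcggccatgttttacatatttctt
H1-2: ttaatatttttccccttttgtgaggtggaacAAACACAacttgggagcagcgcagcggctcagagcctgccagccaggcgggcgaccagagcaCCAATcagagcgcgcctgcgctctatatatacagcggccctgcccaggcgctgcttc
H2BC12 and H2AC6 each have the octamer and the TATA box, and H1-2 has neither in these letters but has the H1 box. Over 300 bases around the start, the octamer was found in 21 of 51 replication-dependent genes with a RefSeq promoter (41.2%), against 1.80% of all 27305 promoters. It stood in 13 of 16 H2B and 8 of 12 H2A promoters and in no H1, H3 or H4 promoter, and in 1 of 10 replacement genes. TATAAA was present in 35 of the 51 (68.6%) and in 3264 of all promoters, CCAAT in 84.3% and 35.7%, and the H1 box in 11.8% and 5.76%, with 5 of the 6 replication-dependent matches to the H1 box being the 5 H1 genes. A match of letters is a description and does not show that a factor was bound.

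H2AC20 (ENSG00000184260), an H2A gene of the smaller cluster on chromosome 1 (149886918 to 149887411, plus strand), went the other way. Its normalised read counts were 33.3 and 29.6 in the RM- samples, from 33 and 31 reads, and 11.2 and 17.2 in the RM+ samples, from 11 and 17 reads. The RM+ values were both below the RM- values, and the RM- mean was 2.22 times the RM+ mean. The log2 difference of -1.12 (SE 0.39) met the unadjusted rule for differentially expressed genes in limma, whereas its adjusted p of 0.175 did not pass, and the difference was -1.49 within batch 1 and -0.75 within batch 2. It fell short of the fold limit when RM+ replicate 1 was left out (-0.84) and with a pseudocount of 10 (-0.79). Shared sequence limits this gene too, since 50.6% of the stretches of 31 bases in its v29 transcript occur elsewhere, most of them in the H2A gene called HIST2H2AA3 there.

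H2BC21, an H2B gene read in the opposite direction, starts 235 bases upstream of H2AC20. The 250 bases before the H2AC20 start (chr1:149886668-149886917, plus strand, RefSeq, GRCh38.p14) cover that gap, and are shown because both genes start from it. Capitals are as above.
H2AC20: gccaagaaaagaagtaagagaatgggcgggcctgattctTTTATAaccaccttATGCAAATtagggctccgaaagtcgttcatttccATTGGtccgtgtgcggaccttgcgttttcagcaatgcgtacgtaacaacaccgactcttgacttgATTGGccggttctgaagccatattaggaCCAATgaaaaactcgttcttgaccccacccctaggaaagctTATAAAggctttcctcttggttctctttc
The stretch holds 1 octamer, 2 TATA boxes, 1 in each direction, and 3 CCAAT boxes. H2BC21 was measured at 88.8 and 66.0 in the RM- samples and 82.3 and 90.9 in the RM+ samples. These values overlapped, and the log2 difference was 0.17 (SE 0.22, limma adjusted p = 0.793), of opposite sign to that of its neighbour. The difference between the neighbours was not tested.

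The remaining 10 replication-dependent genes that passed the filter had means between 11.3 and 96.1, and none was called. H4C8, an H4 gene, had 80.7 and 88.9 in the RM- samples and 117.9 and 96.9 in the RM+ samples, with a log2 difference of 0.33 (limma adjusted p = 0.492). For H2BC11, an H2B gene, 33.3 and 29.6 (RM-) stood below 40.6 and 40.4 (RM+). Both H3 genes, H3C6 and H3C10, had overlapping groups and log2 differences of -0.08 and -0.30. H2AC11, an H2A gene, had the highest log2 difference of the class, 0.95 (SE 0.56, limma adjusted p = 0.480), from 5, 10, 20 and 10 reads in the order RM- 1, RM- 2, RM+ 1 and RM+ 2.

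Summed over all 58 genes, the replication-dependent counts were 1507 and 1378 in the RM- samples (1442 ± 91.7, SD, n = 2) and 1679 and 1806 in the RM+ samples (1742 ± 90.3, SD, n = 2). The RM+ mean was 1.21 times the RM- mean, or 0.27 on the log2 scale, with 0.16 within batch 1 and 0.39 within batch 2. As a share of all reads these were 0.00777% and 0.00706% (RM-) and 0.00881% and 0.00941% (RM+), and the Wilson 95% intervals, which cover counting error only, ended at 0.00817% for the higher RM- sample and began at 0.00839% for the lower RM+ sample. The difference lay in H2BC12, H2AC6 and H1-2, a group set after their values were seen, which made up 60.4% of the sum. They came to 868 and 756 in the RM- samples and 1034 and 1189 in the RM+ samples, a ratio of 1.37. The other 55 genes summed to 639.6 and 621.4 (RM-) and 644.2 and 616.9 (RM+), a ratio of 1.00.

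Some RNAs known to lack a poly(A) tail were also counted in these libraries. RN7SL1, an RNA of the signal recognition particle with a near-identical copy in RN7SL2, was counted at 300.6 and 297.3 in the RM- samples and 453.2 and 417.0 in the RM+ samples. Its log2 difference was 0.54 (SE 0.12, limma adjusted p = 0.0230), and without RM+ replicate 1 it was 0.48 with a limma adjusted p of 0.0912. Of 26 RNAs without a tail that were listed, 7 were in the table and 2 passed the filter, the other being SNORA73B, a small nucleolar RNA with 26.2, 6.69, 19.3 and 6.06 in the same sample order (log2 difference -0.27, limma adjusted p = 0.907). The 7 summed to 333.9 and 309.7 (RM-) and 476.5 and 435.2 (RM+). How far RNA without a tail entered each library, and its part in the histone differences, was not tested.

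Replacement histone genes made up 91.5% of all histone counts, uncorrected for length, and were level between the groups. Their sums were 36288 and 37035 in the RM- samples and 35702 and 37182 in the RM+ samples, which overlap. None of the 9 tested was called by limma, edgeR or DESeq2. At an unadjusted p under 0.05 in limma 1 was lower, where 6.8% of all genes were lower.

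H3-3A and H3-3B both code for H3.3, which is laid down outside replication. H3-3B had 7446 and 7712 (RM-) and 7961 and 7985 (RM+), with a log2 difference of 0.07, and H3-3A had 3358 and 3378 (RM-) and 3264 and 3244 (RM+), with -0.05 (limma adjusted p = 0.765 and 0.849). For H2A.Z, the variant found at promoters, H2AZ1 had 6001 and 6562 (RM-) and 5941 and 6497 (RM+), with overlapping groups and a log2 difference of -0.01 that turned to 0.010 with CPM scaling (reads over the library total). H2AZ2 had 3684 and 4131 (RM-) and 4169 and 4536 (RM+), with 0.16 (limma adjusted p = 0.451). MacroH2A, which carries a large extra domain and marks silent chromatin, was measured for MACROH2A1 at 3778 and 3732 (RM-) and 3787 and 3851 (RM+), and for MACROH2A2 at 535.7 and 589.8 (RM-) and 581.2 and 647.2 (RM+). Their log2 differences were 0.02 and 0.13, and neither was called. H2AJ, an H2A variant, had 1279 and 1173 (RM-) and 1115 and 1179 (RM+), and the linker variant H1-10 had 4435 and 3702 (RM-) and 3767 and 3918 (RM+). Both overlapped, with log2 differences of -0.10 and -0.08. H1-10, H2AZ1, H3-3A, H3-3B, MACROH2A1 and MACROH2A2 each overlap a gene on the opposite strand.

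H2AX (ENSG00000188486, chromosome 11 at 119093874 to 119095465), the variant phosphorylated around DNA breaks, has both a stem-loop and a long extension after it. Its counts were 1901 and 1479 in the RM- samples and 1837 and 2035 in the RM+ samples. The groups overlapped because RM- replicate 1 was higher than RM+ replicate 1, and the log2 difference was 0.21 (SE 0.11, limma adjusted p = 0.405). The batches differed in sign, at -0.05 in batch 1 and 0.46 in batch 2. The adjusted p was 0.0455 with the replicate block in limma. Leaving out RM- replicate 1 gave a log2 difference of 0.39 and a limma adjusted p of 0.0255.

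Of 26 genes for the histone locus body, stem-loop processing and histone mRNA decay, 23 were found in the table by symbol, and all 23 were tested. LSM1, LSM10 and LSM11 were not found by symbol, so the list lacks them. Of the 23, 5 were above 0 and 18 below (8700 and 8932 of all genes tested), with a median log2 difference of -0.04. Both RM+ samples lay above both RM- samples for 4 and below for 6, and the groups of the other 13 overlapped, where 44.4% of all genes did not overlap. CCNE1, the cyclin E that with CDK2 activates histone transcription through NPAT, was the only one called, as higher, where 1.46% of all genes were. It had 513.5 and 476.1 in the RM- samples and 683.8 and 639.1 in the RM+ samples. Its log2 difference was 0.42 (SE 0.10, limma adjusted p = 0.0460), while edgeR gave 0.0554 and DESeq2 0.0848. With RM- replicate 2 left out the limma adjusted p of CCNE1 was 0.164, with RM+ replicate 1 left out 0.170 and with RM+ replicate 2 left out 0.0535, at log2 differences of 0.36, 0.37 and 0.47. CCNE2 had 161.4 and 158.7 (RM-) and 197.1 and 248.4 (RM+), with 0.46 (limma adjusted p = 0.166, and 0.0243 with the replicate block, which called 9.74% of all genes). ZNF473, a protein of the U7 processing machinery, had a log2 difference of -0.33 (limma adjusted p = 0.218). SLBP, the stem-loop binding protein, had 1198 and 1131 (RM-) and 1070 and 1244 (RM+), and NPAT had 419.7 and 451.2 (RM-) and 427.8 and 427.1 (RM+), with log2 differences of -0.01 and -0.03. POU2F1, the octamer factor, had 0.03.

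Histone chaperones and exchange factors numbered 22, all tested, with 8 above 0 and 14 below and a median of -0.05. None was called by limma, edgeR or DESeq2, and 1 was higher and 3 were lower at an unadjusted p under 0.05 in limma, where 7.68% and 6.8% of all genes were. EP400, a motor of H2A.Z exchange, had a log2 difference of 0.26 (limma adjusted p = 0.151). ANP32E, which removes H2A.Z, SSRP1 of the FACT complex and NAP1L1, a chaperone of H2A and H2B, had -0.27, -0.22 and -0.23 (limma adjusted p = 0.172, 0.221 and 0.235). With the replicate block, 1 of the 22 was called higher and 3 lower, in the fit that called 9.74% of all genes in either direction.

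In the 20 genes of S phase, when the replication-dependent histones are made, 6 were above 0 and 14 below, with a median of -0.04. None was called by limma, edgeR or DESeq2, and at an unadjusted p under 0.05 in limma RRM2, a subunit of ribonucleotide reductase, was higher (0.19, adjusted p = 0.343) and RFC4, of the clamp loader, was lower (-0.25, adjusted p = 0.230), where 14.5% of all genes passed in either direction. The replicate block called 1 of the 20 higher, beside 9.74% of all genes in either direction. PCNA, the sliding clamp, had 8618 and 8981 (RM-) and 8271 and 9293 (RM+), with overlapping groups.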

How the data were processed

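Poly(A) RNA of A549 cells in 2D culture was sequenced in 4 samples, grouped by the RM condition in their labels. The 3D samples were not analysed here. Per the submitters' processing notes, GRCh38 was used with HISAT2 2.1.0 and featureCounts 1.6.3, beside FastQC 0.11.7, Trimmomatic 0.38 and DESeq2 1.24.0. Not given in the sources used here are the annotation release, the strand setting and the treatment of reads with several matches. The authors deposited a signal per gene and sample, the count over a DESeq2 size factor. Dividing by the value of 1 read gave whole reads for 100% of values within 1e-06. The deposited log2 fold changes, score columns (mean, standard error and statistic) and p-values are the authors' own comparison and were not used. In the table, 0 columns held other samples.

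The rule kept protein-coding genes with histone symbol prefixes, and 18 matches of other biotypes were left out. Members, classes and lists were chosen with earlier results of these data known. limma 3.58.1 (R 4.3.3) was fitted to log2(normalised count + 1), with a filter of 10 in at least 2 samples and Benjamini-Hochberg adjustment over 17632 genes, two-sided. Fold changes are on that scale, which understates those of low genes. The fit had 2 residual degrees of freedom and borrowed 14.8, so with 2 against 2 samples, where an exact permutation test cannot go below 0.333, the calls rest on spread pooled over genes. edgeR 4.0.16 (quasi-likelihood, TMM) and DESeq2 1.42.0 on whole reads were alternatives, with other pseudocounts, filters, scalings, left-out samples and the replicate block. Pairing comes from the batch labels, and the deviations of same-numbered samples from their group means had a correlation of 0.168 over 17632 genes. Members called by either rule or with a mean of at least 100 were named, with the called members and up to 4 others of each list by p. Others were named as examples, and 1 tested gene is not reported here. Stem-loops came from GENCODE v29, and promoters, for 62 of the 70 genes, from RefSeq.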

Additional observations from a re-analysis of the deposited data

How the results depend on the processing

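The count of histone genes called higher was 1. It was 0 without the filter on low genes, where no gene of the table was called. With the replicate block it was 3, in a fit that called 9.74% of all genes. It did not change with another pseudocount, a filter in every sample, either scaling, edgeR or DESeq2. The shares of all genes called in those fits are not given here. The count called higher in the list of histone transcription, processing and decay was 1. It became 0 with no filter, TMM scaling, edgeR and DESeq2, and 2 with the replicate block. For chaperones the replicate block called 1 higher and 3 lower. For S phase genes the block called 1 higher. H2BC12, H2AC6, H1-2 and H2AC20 each kept their direction in 15 of 15 alternatives. Since their groups do not overlap, the left-out samples and within-batch values could not reverse it, and the other alternatives refit the same 4 samples. The limma adjusted p of H2BC12 ran from 3.58e-05 (block) to 0.436 (no filter). The log2 difference of H2AZ1 turned to 0.010 with CPM scaling and ran from -0.079 to 0.050 with 1 sample left out. That of H1-10 then ran from -0.21 to 0.053, and that of H2BC5 from -0.14 to 0.082. The cause was not tested. The summed log2 ratio with 1 sample left out was 0.21 to 0.34 for the replication-dependent genes and -0.04 to 0.02 for the replacement genes. The block fit has 1 residual degree of freedom and an infinite prior, and after a sample is left out its partner takes its spread from the other group and stands in 1 batch. Scaling moved the median of all genes by 0.02 (CPM) and -0.00 (TMM). The 43 replication-dependent genes under the filter were not tested.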

Other observations

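None of the histone genes outside the symbol rule described here was called by limma. H2AW, an H2A gene on chromosome 1 known as H2AC25, had 76.7 and 81.3 normalised read counts in the RM- samples and 74.2 and 79.8 in the RM+ samples. H2BU1, known as H2BC26, had 14.1 and 14.3 (RM-) and 16.3 and 24.2 (RM+), with a log2 difference of 0.45 (limma adjusted p = 0.694). CENPA, the H3 variant of centromeres, had 866.6 and 780.1 (RM-) and 728.5 and 878.4 (RM+), with overlapping groups. The pseudogenes H2BC19P and H2BC20P were counted at 82.7 and 79.3 and at 144.3 and 113.8 in the RM- samples, and at 76.2 and 65.6 and at 108.7 and 113.1 in the RM+ samples, with log2 differences of -0.19 and -0.21.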
